A study of Homo sapiens with 20 samples.

Results

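The 8 genes described here encode enzymes that make serine or handle its folate-bound carbon unit, mostly in mitochondria: PHGDH, PSAT1, PSPH, SHMT1, SHMT2, MTHFD2, MTHFD1L and ALDH1L2. They were taken from the 60483 genes of the joint expression table by matching the Ensembl identifier to these symbols. All 8 were found, and all 8 were among the 15687 genes tested, those that reached 1 FPKM (fragments per M, divided by the gene's length in kilobases) in 2 or more libraries.

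PHGDH, PSAT1 and PSPH are the consecutive enzymes that branch off glycolysis and make serine. Serine hydroxymethyltransferase then splits serine into glycine and a folate-bound carbon unit, in mitochondria through SHMT2 and in the cytosol through SHMT1. In mitochondria MTHFD2 oxidises that unit, MTHFD1L releases it as formate for purine and thymidylate synthesis in the cytosol, and ALDH1L2 can oxidise it to carbon dioxide while making NADPH. Several of these genes are textbook targets of ATF4, the transcription factor of the amino acid and unfolded protein stress responses, and plasma cells, which secrete much protein, use these responses heavily.

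RNA was sequenced from 5 human multiple myeloma cell models, each with the kinase inhibitor indirubin-3'-monoxime (I3MO) or with its solvent DMSO. The models were ANBL6BR, labelled bortezomib resistant, and the lines ANBL6, ARP1, RPMI8226 and U266, labelled wild type. I3MO was given at 5 µM to ANBL6BR and ANBL6 and at 10 µM to ARP1, RPMI8226 and U266, so that dose and model cannot be told apart between these sets. The labels name bone marrow as the source and give 2 libraries for each of 10 groups, 20 in all. How ANBL6BR was derived, whether it is a single clone, how long cells were treated and whether replicates were separate cultures are not given in the sources used here, so p-values measure only the spread between these libraries, which may be technical.

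Libraries held 12.11 to 20.31 M fragments, recovered from the steps between FPKM values. Over 8 plasma-cell markers the summed level was 164 to 432 FPKM in I3MO libraries and 154 to 582 FPKM in DMSO libraries, and SDC1, the surface marker of plasma cells, was at 28.8 FPKM or more in every library. SLAMF7 stayed under 1 FPKM in ANBL6, ANBL6BR and RPMI8226. Summed markers of B, T, myeloid, red and stromal cells reached at most 5.99 FPKM in any library. The correlation of ANBL6BR with ANBL6 over genes in DMSO was 0.815, against 0.831 for RPMI8226 with ANBL6. The DMSO replicates of ANBL6BR differed most of all replicate pairs, at a chi-square of 82.4 per degree of freedom, where the other groups gave 4.2 to 36.8. As the RNA is from bulk cultures, fewer cells with a transcript and less of it per cell cannot be told apart.

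Transcripts of the serine synthesis and mitochondrial enzymes were higher with I3MO in most models. Of 40 pairs of gene and model, 25 passed the test as higher with I3MO and 0 as lower. PSPH and SHMT2 rose in all 5 models, PSAT1 in 4, PHGDH, MTHFD2 and MTHFD1L in 3 each, ALDH1L2 in 2 and the cytosolic SHMT1 in 0. A gene is called where limma's two-sided p, after Benjamini-Hochberg adjustment across the 15687 genes, was under 0.05. The 8 genes were chosen with earlier results of these data known, so backgrounds here and below give context only. In ANBL6BR, 4 of 8 genes were called higher against a background of 10.0% of all tested genes. The counts were 5 of 8 in ANBL6 (background 4.1%), 5 of 8 in ARP1 (background 23.1%), 5 of 8 in RPMI8226 (background 6.19%) and 6 of 8 in U266 (background 10.5%). In ANBL6BR the 4 calls became 0 without I3MO replicate 2 and 2 without DMSO replicate 2, of which SHMT1 was lower with I3MO. In ANBL6 the 5 calls became 1 without I3MO replicate 2, 2 without DMSO replicate 2 and 3 without DMSO replicate 1. The background moved with the libraries too, as the 1570 higher calls over all tested genes in ANBL6BR became 683 to 1851 with a library left out, the 643 in ANBL6 became 158 to 617, the 3625 in ARP1 became 2085 to 3197, the 971 in RPMI8226 became 441 to 590 and the 1645 in U266 became 1045 to 1772. Calls in the lower direction took 8.4% of all tested genes in ANBL6BR, 3.87% in ANBL6, 13.9% in ARP1, 8.62% in RPMI8226 and 15.8% in U266, and 0 of the 8 genes in each. The median log2 fold change of the 8 genes was 0.31 in ANBL6BR, 0.5 in ANBL6, 0.76 in ARP1, 0.63 in RPMI8226 and 0.86 in U266, against -0.02 to 0.03 over all tested genes. Median-ratio scaling, an alternative fit, divided ARP1 DMSO libraries by 0.902 and 0.9432 and ARP1 I3MO libraries by 1.116 and 1.079. With it ARP1 had 2601 higher and 3469 lower calls over all tested genes, against 3625 and 2176. The SHMT1 change there moved from -0.44 to -0.6. The ARP1 background therefore depends on the scaling.

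Read without a test, both I3MO libraries lay above both DMSO libraries in all 5 models for 5 of the 8 genes, namely PSAT1, PSPH, SHMT2, MTHFD1L and ALDH1L2. The same held for 490 of all tested genes (3.12%).

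**Figure D1:**
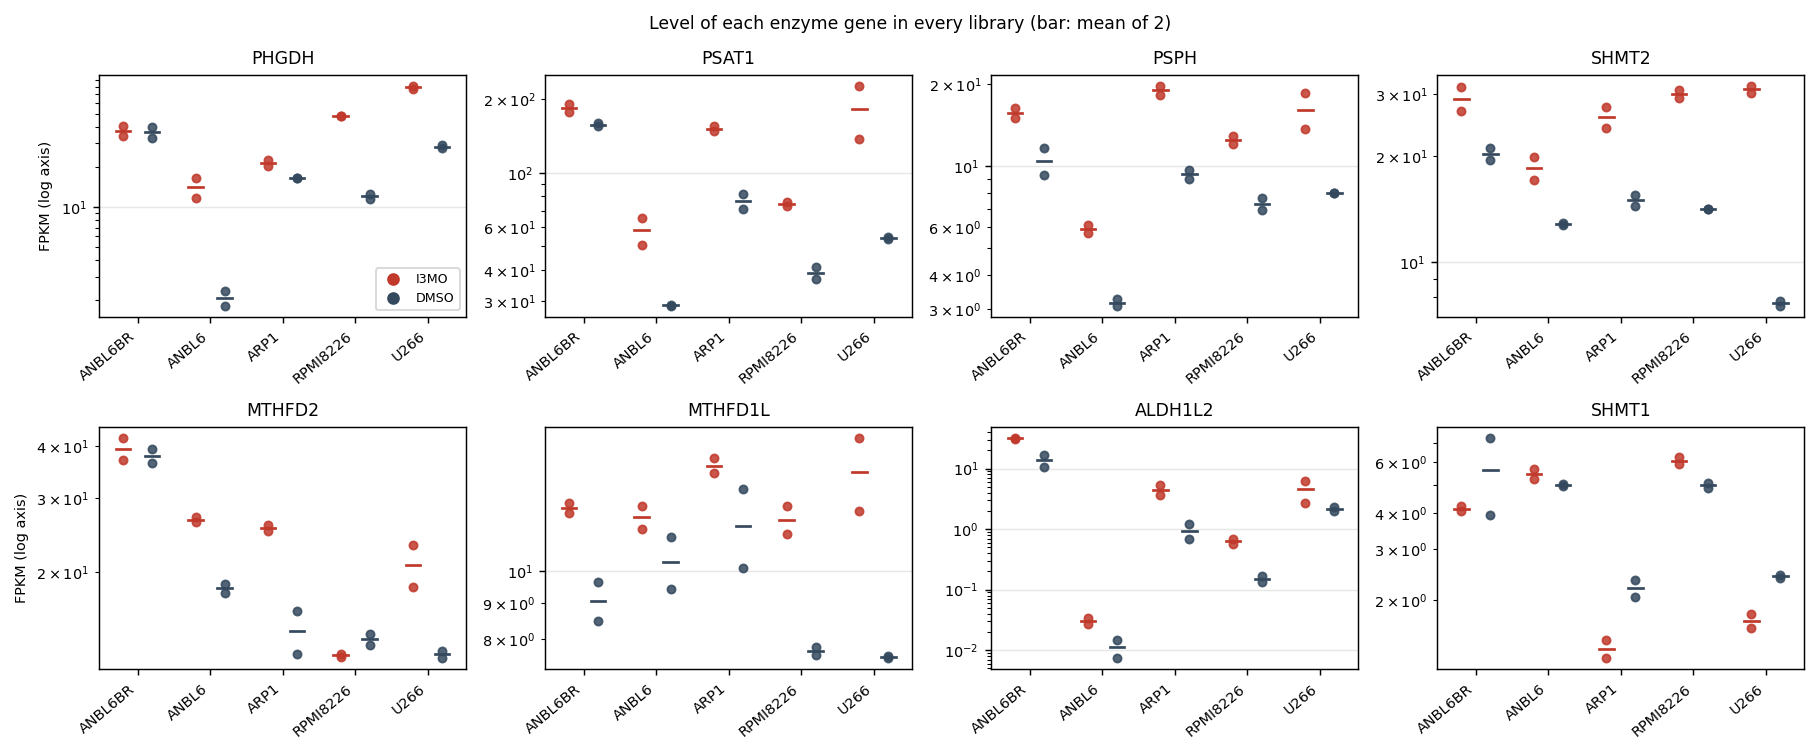
FPKM of the 8 genes in every library on a log axis that differs between panels, with I3MO (red) left of DMSO (dark) in each model, points for libraries and bars for the mean of 2. Both PSPH points with I3MO lie above both DMSO points in each of the 5 models, while the PHGDH points of ANBL6BR overlap.

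PHGDH (ENSG00000092621.10, hg38 chromosome 1, 119648411 to 119744226, plus strand), the entry enzyme of serine synthesis, rose in ANBL6, RPMI8226 and U266. It had 11.7 and 16.5 FPKM in ANBL6 I3MO libraries, against 2.35 and 1.81 FPKM in ANBL6 DMSO libraries. In RPMI8226 it had 48.0 and 48.0 FPKM with I3MO, against 12.5 and 11.5 FPKM with DMSO. U266 I3MO libraries had 81.5 and 77.3 FPKM, against 27.7 and 29.0 FPKM in U266 DMSO libraries. In these 3 models the groups were far apart. The mean with I3MO was 6.78-fold the DMSO mean in ANBL6, 4.0-fold in RPMI8226 and 2.8-fold in U266. On the scale of log2(FPKM + 1), which is used for every log2 fold change below and understates changes of low genes, the changes were 2.28 ± 0.14 (SE; limma adjusted p = 1.64e-06), 1.92 ± 0.14 (limma adjusted p = 3.42e-06) and 1.45 ± 0.14 (limma adjusted p = 1.18e-05). ARP1 I3MO libraries had 20.4 and 22.6 FPKM, against 16.6 and 16.4 FPKM in ARP1 DMSO libraries, which did not overlap but did not pass (0.36 ± 0.14, limma adjusted p = 0.0666). In ANBL6BR the values were 34.3 and 40.2 FPKM with I3MO and 40.1 and 33.1 FPKM with DMSO, so the groups overlapped, and the change was 0.03 ± 0.14 (limma adjusted p = 1).

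The RefSeq promoter table (GRCh38.p14) holds the 300 bases from 250 before to 50 after the start site for 5 of the 8 genes, namely PHGDH, PSAT1, SHMT1, MTHFD2 and MTHFD1L. These windows were searched on both strands for TGATGNAA, the core of the element bound by C/EBP and ATF proteins, which is in 1270 of 35116 promoter windows (3.62%). MTHFD1L has 4 windows in the table, of which 3 overlapping ones hold a match, and the other 4 genes have 1 window each, with no match. The MTHFD1L window whose start site lies furthest from the match is shown beside those of PHGDH and PSAT1, the first enzymes of serine synthesis, which have no match. Capitals mark the match and the base of the start site.
MTHFD1L, chr6:150866236-150866535, plus strand: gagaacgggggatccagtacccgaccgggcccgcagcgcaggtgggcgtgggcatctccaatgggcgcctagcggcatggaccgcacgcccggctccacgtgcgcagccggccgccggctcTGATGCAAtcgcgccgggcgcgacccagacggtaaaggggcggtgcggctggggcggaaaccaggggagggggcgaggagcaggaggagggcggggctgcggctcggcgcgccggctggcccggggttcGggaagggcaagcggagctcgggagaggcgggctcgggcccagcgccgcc
PHGDH, chr1:119711684-119711983, plus strand: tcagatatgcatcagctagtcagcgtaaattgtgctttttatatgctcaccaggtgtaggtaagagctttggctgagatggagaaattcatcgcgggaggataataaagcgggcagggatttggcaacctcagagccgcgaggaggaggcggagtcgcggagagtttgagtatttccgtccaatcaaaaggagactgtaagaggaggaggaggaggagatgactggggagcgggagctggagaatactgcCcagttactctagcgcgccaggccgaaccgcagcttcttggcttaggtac
PSAT1, chr9:78296875-78297174, plus strand: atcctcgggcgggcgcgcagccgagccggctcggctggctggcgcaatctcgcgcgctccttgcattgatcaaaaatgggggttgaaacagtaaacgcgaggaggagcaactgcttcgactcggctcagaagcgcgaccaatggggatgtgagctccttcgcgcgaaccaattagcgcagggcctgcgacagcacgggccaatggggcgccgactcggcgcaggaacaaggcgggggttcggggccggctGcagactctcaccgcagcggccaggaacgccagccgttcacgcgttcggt
The match in MTHFD1L reads TGATGCAA, and it begins at position -129 from this start site, and at -90 and 24 from the start sites of the windows that overlap it. It is a description of letters, and its absence elsewhere says only that these letters are not in these windows.

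PSAT1 (ENSG00000135069.12, hg38 chromosome 9, 78297143 to 78330093, plus strand), the aminotransferase of the pathway, was called higher in 4 models and not called in ANBL6BR. With I3MO it had 137 and 227 FPKM in U266, against 54.5 and 53.8 FPKM with DMSO, and the I3MO replicates were far apart. ANBL6 libraries with I3MO had 50.9 and 65.5 FPKM, against 28.9 and 28.6 FPKM with DMSO. In ARP1 the values were 148 and 155 FPKM with I3MO and 81.6 and 71.4 FPKM with DMSO. The groups of these 3 models did not overlap, nor did those of RPMI8226, with 76.0 and 73.3 FPKM in I3MO libraries and 36.9 and 41.3 FPKM in DMSO libraries. The change was 1.69 ± 0.18 in U266 (limma adjusted p = 2.35e-05), 0.98 ± 0.18 in ANBL6 (limma adjusted p = 0.00684), 0.98 ± 0.18 in ARP1 (limma adjusted p = 0.00118) and 0.92 ± 0.18 in RPMI8226 (limma adjusted p = 0.00442). ANBL6BR had 177 and 190 FPKM with I3MO, against 159 and 155 FPKM with DMSO, a change that did not pass (0.22 ± 0.18, limma adjusted p = 0.502). The call in ANBL6 was lost without ANBL6 I3MO replicate 2 (limma adjusted p = 0.0847) or ANBL6 DMSO replicate 2 (limma adjusted p = 0.0588).

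PSPH (ENSG00000146733.12, hg38 chromosome 7, 56011051 to 56051604, minus strand), the phosphatase that releases serine, rose in every model, by 0.54 to 0.95 on the log2 scale. I3MO libraries of ARP1 had 18.3 and 19.8 FPKM, against 9.67 and 9.02 FPKM in DMSO libraries of ARP1. U266 had 13.7 and 18.6 FPKM with I3MO, against 7.98 and 8.01 FPKM with DMSO, and ANBL6 had 5.69 and 6.08 FPKM with I3MO, against 3.08 and 3.25 FPKM with DMSO. RPMI8226 had 12.1 and 12.9 FPKM with I3MO, against 6.9 and 7.67 FPKM with DMSO. All these groups were apart, and so were those of ANBL6BR, with 15.0 and 16.4 FPKM in I3MO libraries and 11.7 and 9.29 FPKM in DMSO libraries. The change was 0.95 ± 0.13 in ARP1 (limma adjusted p = 0.000138), 0.92 ± 0.13 in U266 (limma adjusted p = 0.000178), 0.73 ± 0.13 in ANBL6 (limma adjusted p = 0.00513), 0.7 ± 0.13 in RPMI8226 (limma adjusted p = 0.00252) and 0.54 ± 0.13 in ANBL6BR (limma adjusted p = 0.0102). The ANBL6 call was lost without ANBL6 I3MO replicate 2 (limma adjusted p = 0.0554), and the ANBL6BR call without ANBL6BR I3MO replicate 2 (limma adjusted p = 0.0909) or ANBL6BR DMSO replicate 2 (limma adjusted p = 0.0841). PSPH has a nearly identical pseudogene copy, PSPHP1, so that its level is uncertain where reads were split between them.

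SHMT2 (ENSG00000182199.9, hg38 chromosome 12, 57229327 to 57234935, plus strand), the mitochondrial hydroxymethyltransferase, rose in every model, with the largest change in U266. There it had 31.8 and 30.2 FPKM with I3MO, against 7.78 and 7.53 FPKM with DMSO, a 4.05-fold ratio of means. RPMI8226 had 30.9 and 29.4 FPKM with I3MO, against 14.2 and 14.2 FPKM with DMSO. In ARP1 it had 24.1 and 27.7 FPKM with I3MO, against 14.5 and 15.5 FPKM with DMSO. The groups did not overlap in these models, nor in ANBL6BR, with 26.9 and 31.5 FPKM in I3MO libraries and 21.2 and 19.5 FPKM in DMSO libraries. ANBL6 had 17.1 and 19.9 FPKM with I3MO, against 12.8 and 12.9 FPKM with DMSO. The change was 1.89 ± 0.1 in U266 (limma adjusted p = 6.77e-08), 1.03 ± 0.1 in RPMI8226 (limma adjusted p = 2.19e-05), 0.75 ± 0.1 in ARP1 (limma adjusted p = 0.000109), 0.5 ± 0.1 in ANBL6BR (limma adjusted p = 0.0036) and 0.49 ± 0.1 in ANBL6 (limma adjusted p = 0.00947). The ANBL6 call was lost without ANBL6 I3MO replicate 2 (limma adjusted p = 0.109), without ANBL6 DMSO replicate 1 (limma adjusted p = 0.0637) and without ANBL6 DMSO replicate 2 (limma adjusted p = 0.069), and the ANBL6BR call without ANBL6BR I3MO replicate 2 (limma adjusted p = 0.0511).

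SHMT1 (ENSG00000176974.16, hg38 chromosome 17, 18327860 to 18363563, minus strand), the cytosolic form of the same enzyme, was called in no model in either direction. It had 1.26 and 1.46 FPKM in ARP1 I3MO libraries, against 2.35 and 2.05 FPKM in ARP1 DMSO libraries. U266 had 1.79 and 1.6 FPKM with I3MO, against 2.38 and 2.45 FPKM with DMSO. In both of these models every I3MO library was below every DMSO library, with changes of -0.44 ± 0.17 (limma adjusted p = 0.0555) and -0.34 ± 0.17 (limma adjusted p = 0.161). The ARP1 change passed with a pseudocount of 0.1 (limma adjusted p = 0.0224), with median-ratio scaling (limma adjusted p = 0.00961) and on recovered fragments per M (limma adjusted p = 0.0131). ANBL6 had 5.69 and 5.24 FPKM with I3MO, against 4.97 and 5.03 FPKM with DMSO, and RPMI8226 had 6.23 and 5.9 FPKM with I3MO, against 4.87 and 5.1 FPKM with DMSO. There every I3MO library was the higher one, with changes of 0.11 ± 0.17 in ANBL6 (limma adjusted p = 0.807) and 0.24 ± 0.17 in RPMI8226 (limma adjusted p = 0.429). In ANBL6BR the values were 4.05 and 4.24 FPKM with I3MO and 7.28 and 3.95 FPKM with DMSO, with the DMSO replicates far apart (-0.32 ± 0.17, limma adjusted p = 0.24). Without ANBL6BR DMSO replicate 2 that change was -0.69 (limma adjusted p = 0.000281), and without ANBL6BR DMSO replicate 1 it was 0.05 (limma adjusted p = 0.821).

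**Figure D2:**
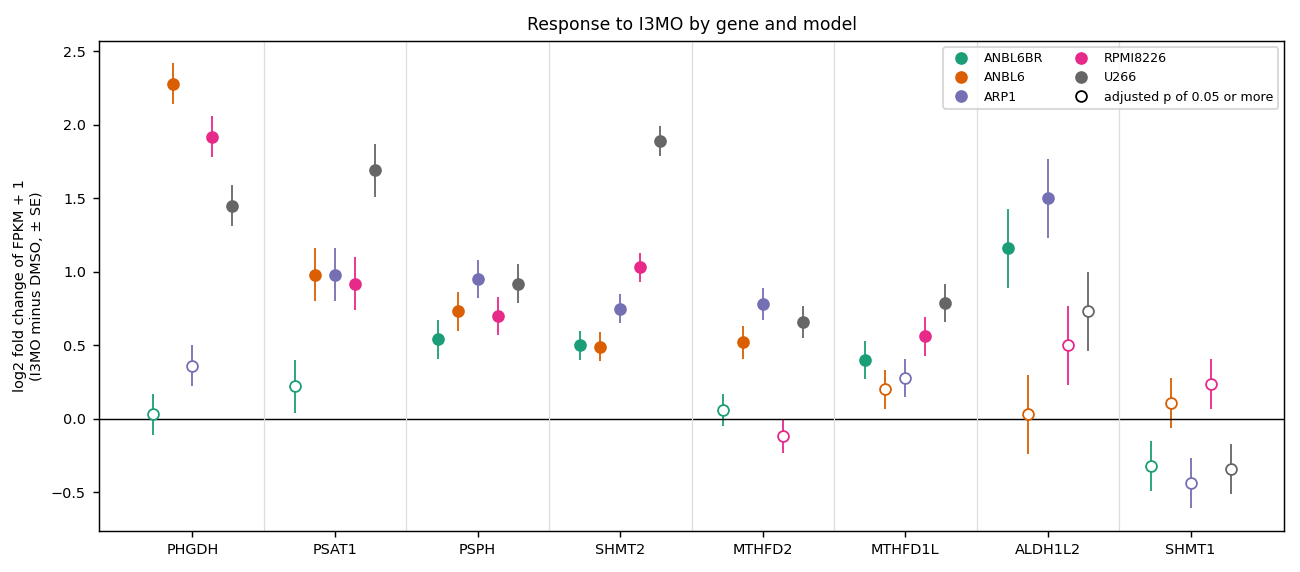
Difference of log2(FPKM + 1), I3MO minus DMSO, with its SE for each gene and model, filled where the limma adjusted p was under 0.05 and open otherwise. PSPH keeps to 0.54 to 0.95 in the 5 models, while PHGDH runs from 0.03 in ANBL6BR to 2.28 in ANBL6 and the SHMT1 points are open on both sides of 0.

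MTHFD2 (ENSG00000065911.10, hg38 chromosome 2, 74198562 to 74217565, plus strand), the mitochondrial dehydrogenase and cyclohydrolase, rose in ARP1, U266 and ANBL6. ARP1 had 25.1 and 25.9 FPKM with I3MO, against 12.8 and 16.2 FPKM with DMSO. U266 had 18.5 and 23.2 FPKM with I3MO, against 13.0 and 12.5 FPKM with DMSO, and ANBL6 had 26.3 and 27.1 FPKM with I3MO, against 18.8 and 17.9 FPKM with DMSO. The groups were apart, with changes of 0.78 ± 0.11 in ARP1 (limma adjusted p = 0.000268), 0.66 ± 0.11 in U266 (limma adjusted p = 0.000956) and 0.52 ± 0.11 in ANBL6 (limma adjusted p = 0.0171). RPMI8226 had 12.8 and 12.6 FPKM with I3MO, against 13.4 and 14.3 FPKM with DMSO, so every I3MO library was the lower one, but the change did not pass (-0.12 ± 0.11, limma adjusted p = 0.62). ANBL6BR had 37.0 and 41.8 FPKM with I3MO, against 39.3 and 36.4 FPKM with DMSO, and these groups overlapped (0.06 ± 0.11, limma adjusted p = 0.902). The ANBL6 call was lost without ANBL6 I3MO replicate 2 (limma adjusted p = 0.121), without ANBL6 DMSO replicate 1 (limma adjusted p = 0.0715) and without ANBL6 DMSO replicate 2 (limma adjusted p = 0.131). Of the merged exon bases of MTHFD2, 27.2% also lie in exons of SLC4A5, so that its level per length is uncertain.

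MTHFD1L (ENSG00000120254.14, hg38 chromosome 6, 150865549 to 151101887, plus strand), the mitochondrial formate-releasing synthetase, had the narrowest range of DMSO levels of the 8 genes, with 1.54-fold between the highest and the lowest model. U266 had 12.2 and 15.5 FPKM with I3MO, against 7.57 and 7.52 FPKM with DMSO. RPMI8226 had 11.3 and 12.4 FPKM with I3MO, against 7.8 and 7.59 FPKM with DMSO, and ANBL6BR had 12.1 and 12.5 FPKM with I3MO, against 8.49 and 9.65 FPKM with DMSO. These groups did not overlap, and the gene rose by 0.79 ± 0.13 in U266 (limma adjusted p = 0.000548), 0.56 ± 0.13 in RPMI8226 (limma adjusted p = 0.00993) and 0.4 ± 0.13 in ANBL6BR (limma adjusted p = 0.0432). Leaving out any 1 of the 4 ANBL6BR libraries ended the ANBL6BR call (limma adjusted p = 0.0531 to 0.195), as did leaving out RPMI8226 I3MO replicate 2 (limma adjusted p = 0.085) or RPMI8226 DMSO replicate 2 (limma adjusted p = 0.0643) that of RPMI8226. The ANBL6BR call was also lost with no filter on low values (limma adjusted p = 0.101) and with median-ratio scaling (limma adjusted p = 0.138). ARP1 had 13.8 and 14.5 FPKM with I3MO, against 13.1 and 10.1 FPKM with DMSO, and ANBL6 had 11.5 and 12.4 FPKM with I3MO, against 9.43 and 11.2 FPKM with DMSO. Neither change passed, at 0.28 ± 0.13 (limma adjusted p = 0.108) and 0.2 ± 0.13 (limma adjusted p = 0.402), and the ARP1 change passed without ARP1 DMSO replicate 1 (limma adjusted p = 0.0318).

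ALDH1L2 (ENSG00000136010.12, hg38 chromosome 12, 105019784 to 105084577, minus strand), the mitochondrial formyl-folate dehydrogenase, had the widest range of levels across the models. In ANBL6BR it had 31.1 and 32.2 FPKM with I3MO, against 17.0 and 10.8 FPKM with DMSO. ARP1 had 5.32 and 3.69 FPKM with I3MO, against 0.689 and 1.2 FPKM with DMSO. In these models it rose, by 1.16 ± 0.27 (limma adjusted p = 0.0096) and 1.5 ± 0.27 (limma adjusted p = 0.000967). U266 had 6.33 and 2.71 FPKM with I3MO, against 1.99 and 2.32 FPKM with DMSO, and the change did not pass (0.73 ± 0.27, limma adjusted p = 0.0651), although it passed without U266 I3MO replicate 2 (1.22, limma adjusted p = 0.00279) and with median-ratio scaling (limma adjusted p = 0.0341). RPMI8226 had 0.561 and 0.695 FPKM with I3MO, against 0.168 and 0.133 FPKM with DMSO. At these levels the 1 added to FPKM held the change to 0.5 ± 0.27 (limma adjusted p = 0.276), while on recovered fragments per M it was 2.05 (limma adjusted p = 0.00291). ANBL6 held 9 and 6 fragments of ALDH1L2 with I3MO, against 2 and 4 fragments with DMSO, a ratio of rates of 2.76 with a 95% interval of 1.01 to 8.69 that covers counting error only. There the change was 0.03 ± 0.27 (limma adjusted p = 1), and 1.38 on fragments per M (limma adjusted p = 0.0426). The ANBL6BR call was lost without ANBL6BR I3MO replicate 2 (limma adjusted p = 0.0654) or ANBL6BR DMSO replicate 2 (limma adjusted p = 0.085).

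FPKM of different genes cannot be set side by side as deposited, because the lengths recovered from them counted exons shared by several transcripts more than once. In 2670 of 2816 multi-exon genes checked, the recovered length equalled the sum of end minus start over the exons of all transcripts. The check covered only genes with the same identifier version in GENCODE 29, among 15422 tested genes with a length. For other genes the recovered and the merged length may come from different annotations. For SHMT2 the recovered length was 8.63 times the merged exon length, and for PHGDH 1.06 times. Recomputed from recovered fragments per kilobase of merged exon length (GENCODE 29), SHMT2 and PSAT1 had the highest levels of the 8 genes in each of the 10 groups. This order rests on the merged length, which counts every annotated exon whether or not these cells use it. That length is 9217 bases for PHGDH and 2188 for PSAT1. By fragments alone, U266 I3MO libraries held 11743 and 12393 for PHGDH, against 7241 and 13347 for PSAT1. Which exons the cells use was not tested. In U266, SHMT2 had 267 and PSAT1 had 298 fragments per kilobase per M with I3MO, against 66.1 for SHMT2 and 88.6 for PSAT1 with DMSO. In ANBL6 with DMSO, SHMT2 was at 111 ± 0.72 (SD, n = 2), PSAT1 at 47.1 ± 0.391, MTHFD2 at 46.5 ± 1.57 and PHGDH at 2.21 ± 0.398. PSAT1 and MTHFD2 did not differ there beyond their spread. SHMT1 was lowest of the 8 genes in ANBL6BR in both treatments, and ALDH1L2 was lowest in ANBL6 and RPMI8226 in both.

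**Figure D3:**
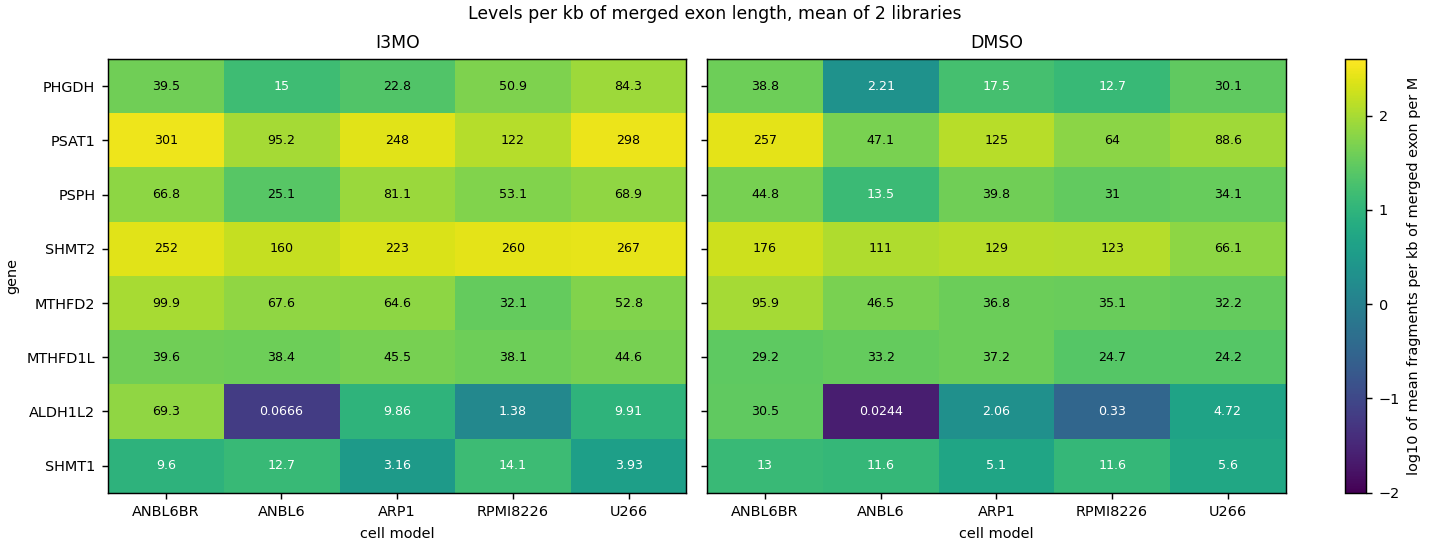
Mean level of each gene (rows) in each model (columns) in fragments per kilobase of merged exon length per M, with I3MO left and DMSO right, and colour on a log10 scale. SHMT2 and PSAT1 carry the highest values, and ALDH1L2 in ANBL6 the lowest.

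With DMSO alone the level of all 8 genes differed between the models by limma's joint test, as did that of 90.0% of all tested genes, so that this count says little about these enzymes. For PHGDH the order in FPKM was ANBL6BR at 36.6 ± 4.99, U266 at 28.4 ± 0.903, ARP1 at 16.5 ± 0.105, RPMI8226 at 12.0 ± 0.73 and ANBL6 at 2.08 ± 0.375 (SD, n = 2), and each neighbouring pair differed by more than the sum of the SDs. PSAT1 ran from 157 ± 2.45 FPKM in ANBL6BR to 28.8 ± 0.239 FPKM in ANBL6, again with every neighbour beyond its spread. PSPH also was highest in ANBL6BR, at 10.5 ± 1.73 FPKM, within the spread of ARP1 at 9.35 ± 0.462 FPKM, and lowest in ANBL6 at 3.16 ± 0.12 FPKM. SHMT2 had its lowest DMSO level in U266, at 7.66 ± 0.174 FPKM, and its highest in ANBL6BR, at 20.4 ± 1.23 FPKM. With I3MO the order changed: U266 had the highest SHMT2 mean, at 31.0 ± 1.13 FPKM, with RPMI8226 and ANBL6BR following within their spread. MTHFD1L ranged only from 11.6 ± 2.11 FPKM in ARP1 to 7.54 ± 0.036 FPKM in U266 with DMSO, and with I3MO no neighbours in its order differed beyond their spread.

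ANBL6BR is labelled bortezomib resistant, and with DMSO 6 of the 8 genes were higher in ANBL6BR than in ANBL6, against a background of 27.0% of all tested genes. PHGDH had 40.1 and 33.1 FPKM in ANBL6BR, against 2.35 and 1.81 FPKM in ANBL6, a 17.6-fold ratio of means and a log2 difference of 3.61 ± 0.14 (limma adjusted p = 3.36e-10). PSAT1 was 5.45-fold higher by the ratio of means (2.41 ± 0.18, limma adjusted p = 1.68e-07), with 159 and 155 FPKM in ANBL6BR against 28.9 and 28.6 FPKM in ANBL6. ALDH1L2 held 7495 fragments over both ANBL6BR DMSO libraries, against 6 over both ANBL6 DMSO libraries. That is a ratio of rates of 1250 with a 95% interval of 575 to 3410, for counting error only, and the fitted difference was 3.85 ± 0.27 (limma adjusted p = 8.17e-08). PSPH was higher by 1.46 ± 0.13 (limma adjusted p = 6.58e-07), MTHFD2 by 1.01 ± 0.11 (limma adjusted p = 8.63e-06) and SHMT2 by 0.62 ± 0.1 (limma adjusted p = 0.000116). MTHFD1L at -0.17 ± 0.13 (limma adjusted p = 0.313) and SHMT1 at 0.09 ± 0.17 (limma adjusted p = 0.722) were not called, and the SHMT1 difference was 0.46 without ANBL6BR DMSO replicate 2 (limma adjusted p = 0.000733) and -0.28 without ANBL6BR DMSO replicate 1 (limma adjusted p = 0.0174), so that its direction rested on which DMSO library was kept. Resistance and any other difference between these cultures cannot be told apart. Over genes in DMSO, ANBL6BR correlated with ANBL6 at 0.815, against 0.831 for RPMI8226 with ANBL6. How closely ANBL6BR and ANBL6 are related was not tested.

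The response to I3MO, at the same 5 µM dose, differed between ANBL6BR and ANBL6 for PHGDH alone of the 8 genes, against a background of 8.47% of all tested genes. The difference of the 2 responses was -2.25 ± 0.2 (limma adjusted p = 6.99e-05), with 0.03 in ANBL6BR against 2.28 in ANBL6. This comparison shares its DMSO libraries with the one above, in which PHGDH was already high in ANBL6BR. PSAT1 (-0.76 ± 0.26, limma adjusted p = 0.0896), ALDH1L2 (1.13 ± 0.38, limma adjusted p = 0.0866) and MTHFD2 (-0.46 ± 0.16, limma adjusted p = 0.102) did not pass. ALDH1L2 passed without ANBL6BR DMSO replicate 1 (1.44, limma adjusted p = 0.0325), and on recovered fragments per M its difference was -0.15 (limma adjusted p = 0.91). The SHMT1 difference was -0.42 ± 0.23 with all libraries (limma adjusted p = 0.311). With a library left out it ran from -0.79, without ANBL6BR DMSO replicate 2, to -0.05.

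Across the 5 models, limma's joint test of equal responses called 5 of the 8 genes, against a background of 44.5% of all tested genes. These were PHGDH (limma adjusted p = 2.66e-05), SHMT2 (limma adjusted p = 6.79e-05), MTHFD2 (limma adjusted p = 0.00317), PSAT1 (limma adjusted p = 0.00882) and ALDH1L2 (limma adjusted p = 0.0419). With so high a background, the count of 5 says little about these enzymes as a set. The call of ALDH1L2 was lost under 18 alternatives (limma adjusted p = 0.058 to 0.199), among them fragments per M. PSPH was not called (limma adjusted p = 0.265), nor were MTHFD1L (limma adjusted p = 0.0781) and SHMT1 (limma adjusted p = 0.0872). PSPH passed without U266 I3MO replicate 1 (limma adjusted p = 0.0393), and MTHFD1L without that library (limma adjusted p = 0.0252), without ARP1 DMSO replicate 2 (limma adjusted p = 0.0279) and with median-ratio scaling (limma adjusted p = 0.0484). SHMT1 passed with median-ratio scaling (limma adjusted p = 0.0331) and on fragments per M (limma adjusted p = 0.0403). Its ANBL6BR DMSO libraries disagreed, at 7.28 and 3.95 FPKM. Leaving out either one removes this spread from the fit, and the SHMT1 change in ANBL6BR was then 0.05 without replicate 1 and -0.69 without replicate 2.

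When each model counted once, I3MO against DMSO over 5 pairs of means, 0 of the 8 genes and 0.0% of all tested genes were called by limma, with 2651 genes at an unadjusted p under 0.05. Of the 8 genes 7 were among these, all but SHMT1, with mean changes of 1.21 ± 0.33 for PHGDH (limma adjusted p = 0.161), 0.96 ± 0.19 for PSAT1 (limma adjusted p = 0.113), 0.77 ± 0.1 for PSPH (limma adjusted p = 0.0918) and 0.93 ± 0.21 for SHMT2 (limma adjusted p = 0.134). ALDH1L2 averaged 0.78 ± 0.21 (limma adjusted p = 0.15), MTHFD1L 0.45 ± 0.12 (limma adjusted p = 0.147), MTHFD2 0.38 ± 0.16 (limma adjusted p = 0.28) and SHMT1 -0.15 ± 0.13 (limma adjusted p = 0.565). On recovered fragments per M, 119 genes were called, PSPH (0.86) and ALDH1L2 (1.58) among them (limma adjusted p = 0.0343 each).

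ATF4, a transcription factor known to act on several of these genes, had 111 and 130 FPKM in ANBL6 I3MO libraries, against 74.9 and 68.0 FPKM in ANBL6 DMSO libraries. It rose in all 5 models, by 0.38 ± 0.1 in ANBL6BR (limma adjusted p = 0.0183) to 1.31 ± 0.1 in U266 (limma adjusted p = 1.42e-06). The ANBL6BR call of ATF4 was lost with median-ratio scaling (limma adjusted p = 0.0746), without either ANBL6BR I3MO replicate (limma adjusted p = 0.0651 and 0.117) and without ANBL6BR DMSO replicate 2 (limma adjusted p = 0.109). DDIT3, which encodes the stress factor CHOP, rose in ANBL6BR (1.12 ± 0.23, limma adjusted p = 0.00518) and U266 (1.25 ± 0.23, limma adjusted p = 0.00152). Its changes of 0.67 in ANBL6, 0.29 in ARP1 and 0.49 in RPMI8226 did not pass (limma adjusted p = 0.1, 0.381 and 0.209), although those of ANBL6 (limma adjusted p = 0.0363) and RPMI8226 (limma adjusted p = 0.0298) passed on fragments per M. After each model's mean over its 4 libraries was subtracted, the correlation over the 20 libraries was computed with 10777 other protein-coding genes, as a description in which treatment is shared by all points. For PSAT1 the most similar were GARS1 at 0.986, ATF4 at 0.973 and SARS1 at 0.956. PSPH was most like ATF4 at 0.966, MCFD2 at 0.964 and ASNS at 0.963. SHMT2 was most like SLC6A9 at 0.984, EIF4EBP1 at 0.972 and PYCR1 at 0.967, with ATF4 number 6 at 0.955. The other enzyme genes were less like ATF4, which by rank among the 10777 genes was number 64 for MTHFD1L (0.868), 76 for PHGDH (0.821), 114 for MTHFD2 (0.814), 1387 for ALDH1L2 (0.693) and 8330 for SHMT1 (-0.372).

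Other genes of folate and serine metabolism moved in both directions with I3MO. Of 4 tested genes of the cytosolic folate cycle, 2 rose and 1 fell in ANBL6BR, 2 fell and 0 rose in each of ARP1 and U266, and 0 were called in ANBL6 and RPMI8226. For this list and those that follow, the background of all tested genes was 10.0% higher and 8.4% lower in ANBL6BR, 4.1% and 3.87% in ANBL6, 23.1% and 13.9% in ARP1, 6.19% and 8.62% in RPMI8226, and 10.5% and 15.8% in U266. No list was tested against it. TYMS, thymidylate synthase, fell in ANBL6BR (-1.03 ± 0.17, limma adjusted p = 0.00123), U266 (-0.96 ± 0.17, limma adjusted p = 0.000956) and ARP1 (-0.63 ± 0.17, limma adjusted p = 0.0108). The ARP1 call was lost without ARP1 I3MO replicate 1 (limma adjusted p = 0.119) or ARP1 DMSO replicate 1 (limma adjusted p = 0.123). MTHFD1, the cytosolic enzyme that joins formate to folate, fell in U266 to 2.91 FPKM with I3MO, against 4.69 FPKM with DMSO (-0.55 ± 0.13, limma adjusted p = 0.00736), and in ARP1 (-0.4 ± 0.13, limma adjusted p = 0.0292). The U266 call was lost without U266 I3MO replicate 1 (limma adjusted p = 0.0666) or U266 DMSO replicate 2 (limma adjusted p = 0.0561), and the ARP1 call of MTHFD1 without either ARP1 I3MO replicate (limma adjusted p = 0.0844 and 0.12), without ARP1 DMSO replicate 1 (limma adjusted p = 0.21) and with no filter on low values (limma adjusted p = 0.0668). ALDH1L1, the cytosolic formyl-folate dehydrogenase, rose in ANBL6BR (0.3 ± 0.09, limma adjusted p = 0.0285), a call lost with no filter (limma adjusted p = 0.0589), without either ANBL6BR I3MO replicate (limma adjusted p = 0.109 and 0.132) and without ANBL6BR DMSO replicate 2 (limma adjusted p = 0.157). Of 8 tested genes of mitochondrial folate supply and glycine cleavage, 0 to 2 rose and 0 to 2 fell in each model. GLDC, the glycine-cleaving decarboxylase, fell in ARP1 to 5.84 FPKM with I3MO, against 14.8 FPKM with DMSO (-1.21 ± 0.1, limma adjusted p = 6.03e-06), and in U266 to 0.366 FPKM with I3MO, against 1.44 FPKM with DMSO (-0.84 ± 0.1, limma adjusted p = 6.73e-05). On fragments per M the GLDC changes were -1.34 in ARP1 (limma adjusted p = 0.356) and -1.97 in U266 (limma adjusted p = 0.213), as large or larger but no longer called. SFXN3, a mitochondrial serine carrier, fell in RPMI8226 (-0.61 ± 0.06, limma adjusted p = 6.28e-05) and rose in U266 (0.45 ± 0.06, limma adjusted p = 0.000265), and SLC25A32, the mitochondrial folate carrier, rose in ARP1 (0.76 ± 0.1, limma adjusted p = 0.00014).

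Of 3 tested genes of folate uptake and retention, at most 1 rose and at most 2 fell in a model, with SLC19A1, the reduced folate carrier, lower in U266 (-0.3 ± 0.07, limma adjusted p = 0.00477). Among 6 genes of purine synthesis, which uses formyl-folate, 0 rose outside ARP1, where PPAT, the entry enzyme, rose (1.05 ± 0.18, limma adjusted p = 0.000682). PFAS, a later enzyme, fell in 4 models, by -0.41 ± 0.1 in RPMI8226 (limma adjusted p = 0.0125) to -0.72 ± 0.1 in ARP1 (limma adjusted p = 0.000138). The RPMI8226 call was lost without I3MO replicate 1 (limma adjusted p = 0.128), without DMSO replicate 1 (limma adjusted p = 0.0718) and without DMSO replicate 2 (limma adjusted p = 0.0622). Of 6 tested genes of the methionine cycle, 3 rose in ARP1, 1 fell in RPMI8226 and 3 fell in U266. Those that rose in ARP1 included AMD1 (1.28 ± 0.17, limma adjusted p = 0.000152), of polyamine synthesis, and MTRR (0.92 ± 0.13, limma adjusted p = 0.000225), which keeps methionine synthase active. Of all genes called in ARP1, 62.5% were higher, against 42.9% with median-ratio scaling.

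Of 9 tested genes that carry or use serine and glycine, 3 rose in ANBL6BR (background 10.0%), 2 in ANBL6 (background 4.1%), 6 in ARP1 (background 23.1%), 3 in RPMI8226 (background 6.19%) and 4 in U266 (background 10.5%), while 2 fell in RPMI8226 and 1 in U266. The median log2 fold change of the 9 was 0.17 in ANBL6BR, -0.01 in ANBL6, 0.49 in ARP1, 0.19 in RPMI8226 and 0.26 in U266, against -0.02 to 0.03 over all tested genes. SLC6A9, a glycine transporter, rose in all 5 models, from 0.49 ± 0.11 in ARP1 (limma adjusted p = 0.00341) to 1.77 ± 0.11 in U266 (limma adjusted p = 2.38e-07). Its ANBL6 call (0.55 ± 0.11, limma adjusted p = 0.00903) was lost without ANBL6 I3MO replicate 2 (limma adjusted p = 0.103), without ANBL6 DMSO replicate 1 (limma adjusted p = 0.0587) and without ANBL6 DMSO replicate 2 (limma adjusted p = 0.0688). SLC1A5, a carrier of neutral amino acids, had 43.6 FPKM in ANBL6 with I3MO against 25.7 FPKM with DMSO (0.73 ± 0.11, limma adjusted p = 0.00232) and also rose in RPMI8226 and U266. CBS, which joins serine to homocysteine, rose in ARP1 (0.9 ± 0.06, limma adjusted p = 1.41e-06), RPMI8226 (0.63 ± 0.06, limma adjusted p = 3.28e-05) and U266 (0.28 ± 0.06, limma adjusted p = 0.00522), although on fragments per M the larger changes of 0.96 in RPMI8226 (limma adjusted p = 0.21) and 1.0 in U266 (limma adjusted p = 0.16) did not pass.

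**Figure D4:**
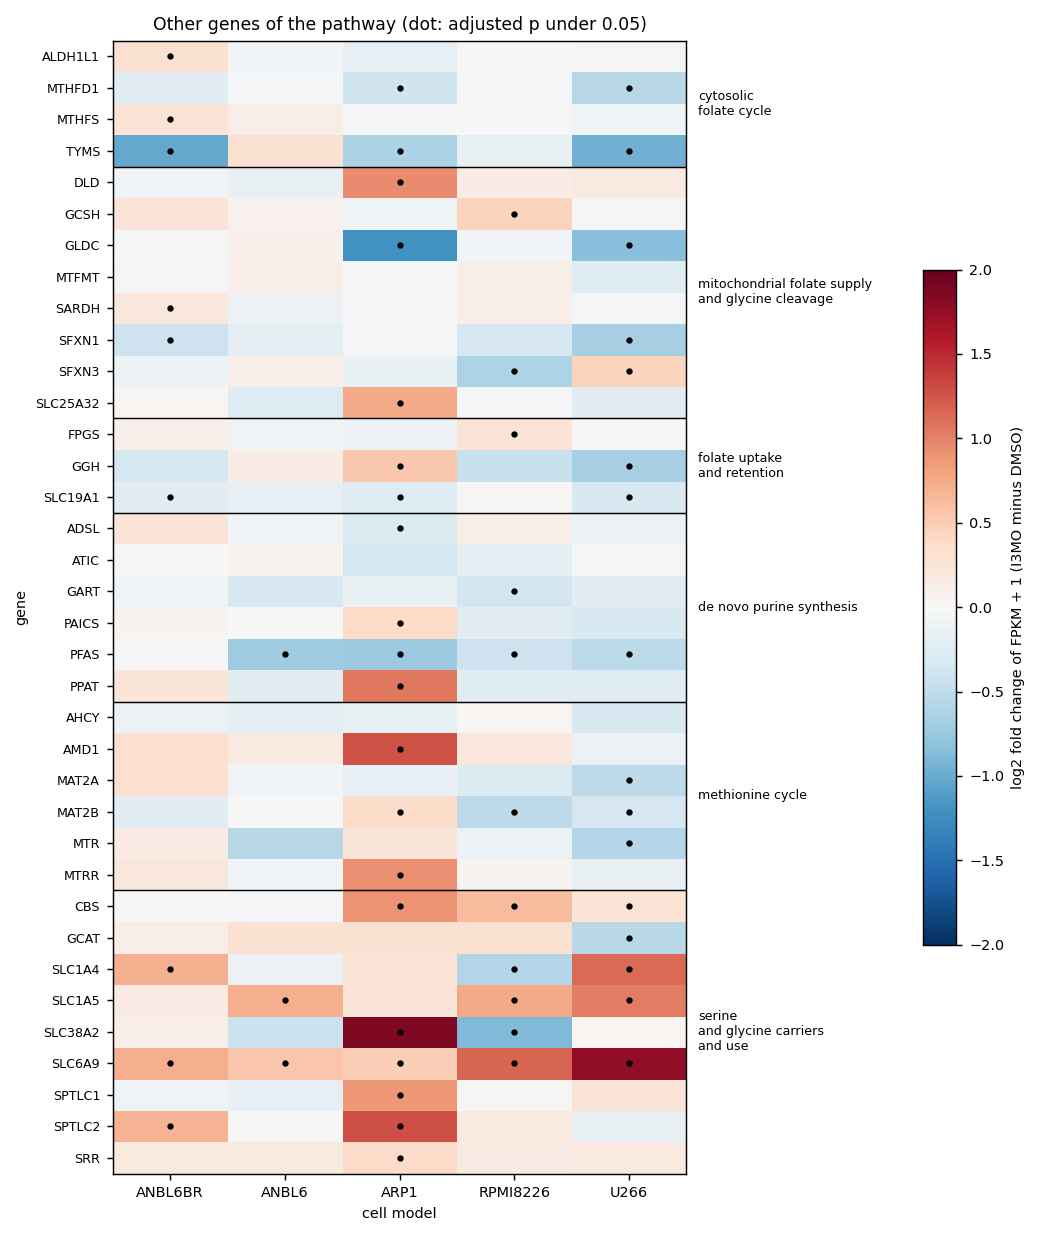
Difference of log2(FPKM + 1), I3MO minus DMSO, of the tested genes of 6 lists around these enzymes (rows) in the 5 models (columns), red for higher and blue for lower with I3MO, with a dot where the limma adjusted p was under 0.05. SLC6A9 has a dot in all 5 models, while TYMS is blue with dots in ANBL6BR, ARP1 and U266.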

How the data were processed

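RNA sequencing values of 20 libraries were used as the authors deposited them, in FPKM per gene, with groups, doses and replicate numbers from the labels. Per the submitters' processing notes, the authors used Trimmomatic (0.32 and 0.36 are both named), STAR, SAMtools and hg38. The counting tool, its strand setting and its annotation are not given in the sources used here. The single-library tables repeat the joint table exactly.

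Symbols came by identifier from a separate list of gene names, and from GENCODE 29 where that list held none. The test used limma 3.58.1 (R 4.3.3) on log2(FPKM + 1) of the 15687 genes that reached FPKM 1 in 2 or more libraries. It fitted group means over the 20 libraries with a variance trend, and p-values were adjusted over all of these genes. The comparison across models used 10 means with the model as a block. Each group holds 2 libraries, so spread was pooled over groups. Fragments were recovered from the FPKM steps: 100% of values of 21162 single-exon genes were whole within 0.02 fragments, with library totals of 12.11 to 20.31 M, and 15422 of the tested genes got a length. Intervals cover counting error only. The fits were also run on simulated fragments with the same spread in all groups. The real replicate pairs had a chi-square of 4.2 to 82.4 per degree of freedom, so that run does not test unequal spread.

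The text names the 8 enzyme genes, ATF4, DDIT3, up to 3 genes of smallest p in each pathway list and, for PSPH, SHMT2 and PSAT1, the 3 genes of most similar pattern. Some genes of the cytosolic folate cycle are not reported here. The genes and lists were chosen with earlier results of these data known. Alternatives were a pseudocount of 0.1, no filter, median-ratio scaling, recovered fragments per M, the replicate number as a block and leaving out each library or model. Where a fit leaves out a library, the lone library left in its group is assumed to vary like the other groups.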

Additional observations from a re-analysis of the deposited data

Results flagged for a closer look

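The response to I3MO differed between models for 5 of the 8 enzyme genes, by limma's F test over the differences between models, against 44.5% of all tested genes. With so high a background, the count of 5 says little about these enzymes as a set. Model and dose cannot be told apart between the models given 5 µM and those given 10 µM. For PHGDH (limma adjusted p = 2.66e-05) the log2 fold change ran from 0.03 in ANBL6BR to 2.28 in ANBL6. For SHMT2 (limma adjusted p = 6.79e-05) it ran from 0.49 in ANBL6 to 1.89 in U266. MTHFD2 (limma adjusted p = 0.00317) ran from -0.12 in RPMI8226 to 0.78 in ARP1, and PSAT1 (limma adjusted p = 0.00882) from 0.22 in ANBL6BR to 1.69 in U266. ALDH1L2 (limma adjusted p = 0.0419) ran from 0.03 in ANBL6 to 1.5 in ARP1, and on fragments per M its F test did not pass (limma adjusted p = 0.199). In ANBL6 its means were 0.0304 FPKM with I3MO and 0.0111 FPKM with DMSO, so the 1 added to FPKM held that change down. On fragments per M the ANBL6 change of ALDH1L2 was 1.38 (limma adjusted p = 0.0426). The response of PHGDH also differed between ANBL6BR and ANBL6 at the same dose (limma adjusted p = 6.99e-05).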

How the results depend on the processing

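Of 1537 values of single genes under alternatives, 1388 kept their direction and side of the threshold, 105 lost a call, 32 gained one and 12 changed sign. In ANBL6 the 5 called enzyme genes became 1 to 5 when a library was left out (1 without I3MO replicate 2, 2 without DMSO replicate 2, 3 without DMSO replicate 1), and in ANBL6BR the 4 became 0 to 3 (0 without I3MO replicate 2, 2 without DMSO replicate 2). The 1 gene whose response differed between ANBL6BR and ANBL6 became 1 to 2, with 2 without either ANBL6BR DMSO replicate. Across models the 0 called became 2 on recovered fragments per M, where 119 of 15422 tested genes were called. Replicate numbers did not pair the libraries (correlation of deviations -0.113 to 0.034). With the replicate number as a block, 3 enzyme genes were called in ANBL6, among 456 of 15687 tested genes. Across models the block called 7 enzyme genes, among 2219 of 15687 tested genes. That fit over the 20 libraries sets the change against the spread of libraries and not of models. A crossed block in ARP1, chosen after seeing the data, called 5064 genes against 5801.

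The changes of sign were PHGDH in ANBL6BR (-0.003 with median-ratio scaling, -0.11 to 0.16 with a library left out), MTHFD2 in ANBL6BR (-0.03 to 0.14), SHMT1 in ANBL6BR (-0.69 to 0.05) and in ANBL6BR against ANBL6 (-0.28 to 0.46), and for the difference of responses SHMT2 (-0.0031 with a pseudocount of 0.1, -0.0043 on fragments per M, -0.1 to 0.12 with a library left out) and ALDH1L2 (-0.15 on fragments per M). Apart from SHMT1, none of these was called under either setting, and the cause was not tested.

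Over all genes, no filter gave 4181 calls in ANBL6 against 1250, and 2888 for the difference of responses against 1328. With a library left out, the 1250 calls in ANBL6 became 323 to 1225, the 2888 in ANBL6BR 1365 to 3335, the 5801 in ARP1 3407 to 5098, the 2323 in RPMI8226 1118 to 1354, the 4117 in U266 2666 to 3994 and the 1328 for the difference 523 to 2189, so that the shares over all genes rest on single libraries as well. The block gave 456 in ANBL6, 1541 in RPMI8226 against 2323, 452 for the difference and 3942 against 6980 for equal responses. Across models 119 genes were called on fragments per M, 2219 with the block and 1 without ANBL6BR DMSO replicate 1, against 0. With 2 libraries a group, a missed call does not show that a gene did not respond.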

Other observations

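PSPHP1, the pseudogene copy of PSPH, had 22.7 and 26.5 FPKM in ANBL6 I3MO libraries, against 14.7 and 15.5 FPKM in ANBL6 DMSO libraries, and 66.1 to 76.8 FPKM in the 4 RPMI8226 libraries. It held 0 fragments in all 4 ANBL6BR and all 4 ARP1 libraries, which allows up to 3 fragments in each for counting error only. PSPH rose with I3MO in ANBL6BR and ARP1 as well, where no fragment was assigned to the pseudogene. Its ANBL6BR call, as given above, rested on single libraries. How reads matching both genes were assigned is not given, so sharing of reads was not tested.

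With each model's mean subtracted, PSAT1 and PSPH correlated at 0.94 over the 20 libraries, PSAT1 and SHMT2 at 0.93, and MTHFD1L and SHMT2 at 0.91. SHMT1 was at -0.35 with PSAT1 and -0.51 with MTHFD2. ALDH1L2 and PHGDH were at 0.36. All libraries share the treatment contrast, so these values describe the libraries only.

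In ANBL6, 32668 and 28419 genes had a value above 0 with I3MO, against 22138 and 22710 with DMSO, at 14.11 and 12.11 M fragments against 14.48 and 14.48 M. Its part in the ANBL6 results was not tested.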
